A study of Mus musculus with 12 samples.

Results

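The genes described here build the intercalated disc, the specialized border at which beating heart muscle cells, or cardiomyocytes (CMs), are joined end to end. H3K4me3, trimethylation of histone H3 at lysine 4, was profiled by ChIP–seq, sequencing of immunoprecipitated chromatin, in CM nuclei of adult mice. Of the 15848 peaks of the data set, 11 carried the name of 1 of 10 junction genes (Gja1, Gja5, Cdh2, Dsp, Pkp2, Jup, Dsg2, Dsc2, Vcl and Des). All 11 peaks were kept whatever their values, but the genes themselves were chosen with earlier results of these data known. The 11 peaks belonged to 9 genes, because no peak was named for Gja5. The libraries labelled Ctrl_Cre came from αMHC-Cre pos/+ mice with intact Cpt1b alleles (Cpt1b +/+, here CtrlCre, 3 ChIP libraries). Those labelled Cpt1b_CKO came from αMHC-Cre pos/+ mice with both Cpt1b alleles floxed (Cpt1b fl/fl, here Cpt1bcKO, 3 ChIP libraries), in which exons 10 to 11 of the muscle form of carnitine palmitoyltransferase 1 are removed. CtrlCre and Cpt1bcKO mice therefore both carry Cre, which the αMHC promoter drives in CMs from embryonic stages on. Nuclei were sorted from ventricles with an antibody against PCM1, a marker of CM nuclei. The age is given only as adult. The methods of the study describe biological replicates for its work in mice, and the labels do not tie each library to a mouse, so p-values measure the spread between these libraries.

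Gap junctions, desmosomes and fascia adherens junctions make up the intercalated disc. Gap junctions are channels of connexins through which current passes from cell to cell, with Cx43 (Gja1) as the main one of the working ventricle and Cx40 (Gja5) found mostly in atria, conduction tissue and arterial endothelium. Desmosomes are held together by the cadherins desmoglein 2 (Dsg2) and desmocollin 2 (Dsc2), which plakophilin 2 (Pkp2), plakoglobin (Jup) and desmoplakin (Dsp) tie to the desmin filaments (Des) inside the cell. N-cadherin (Cdh2) and vinculin (Vcl) belong to the fascia adherens, where thin filaments of the sarcomere end. Inherited defects of the desmosome are known for causing arrhythmogenic cardiomyopathy. H3K4me3 itself marks active promoters, and wide domains of it are typical of genes that define a cell type.

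The promoters of 4 junction genes are shown, picked after the H3K4me3 values were seen. Gja1 had the widest peak, and Des was the one gene with higher values in all Cpt1bcKO libraries. Vcl had the smallest difference between the genotypes, and Gja5 had no peak that carried its name. A link between these sequences and the values was not tested. Each window runs from 250 bases before to 50 bases after the RefSeq start, on GRCm38.p6. The promoter set used here held a window for 6 of the 10 genes. It had no entry for Pkp2, Cdh2, Dsg2 and Dsc2, which says nothing of their annotation in RefSeq. Capitals mark matches, on either strand, to the Sp1 box GGGCGG, the TEAD motif GGAATG, the GATA motif AGATAA, the AP-1 motif TGACTCA and the CArG box bound by serum response factor.
Gja1 (chr10:56377050-56377349, plus strand): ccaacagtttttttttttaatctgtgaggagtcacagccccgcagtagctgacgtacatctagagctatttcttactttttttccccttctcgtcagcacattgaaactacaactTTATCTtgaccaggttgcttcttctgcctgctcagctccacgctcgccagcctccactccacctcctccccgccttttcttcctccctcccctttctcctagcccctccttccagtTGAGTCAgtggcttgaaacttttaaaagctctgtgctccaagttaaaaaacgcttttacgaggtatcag
Des (chr1:75360042-75360341, plus strand): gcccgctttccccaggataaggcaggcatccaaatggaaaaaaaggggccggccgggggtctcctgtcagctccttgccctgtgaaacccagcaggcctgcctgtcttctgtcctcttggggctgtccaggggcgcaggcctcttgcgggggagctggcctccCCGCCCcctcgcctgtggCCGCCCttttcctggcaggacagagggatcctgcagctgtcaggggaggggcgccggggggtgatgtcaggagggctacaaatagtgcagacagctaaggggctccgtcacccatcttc
Vcl (chr14:20929148-20929447, plus strand): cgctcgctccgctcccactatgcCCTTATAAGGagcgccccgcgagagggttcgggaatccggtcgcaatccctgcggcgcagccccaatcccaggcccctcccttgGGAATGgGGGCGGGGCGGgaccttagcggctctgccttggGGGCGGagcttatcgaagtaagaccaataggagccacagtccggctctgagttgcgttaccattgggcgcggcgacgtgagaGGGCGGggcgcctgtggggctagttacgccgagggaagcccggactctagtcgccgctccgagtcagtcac
Gja5 (chr3:97032152-97032451, plus strand): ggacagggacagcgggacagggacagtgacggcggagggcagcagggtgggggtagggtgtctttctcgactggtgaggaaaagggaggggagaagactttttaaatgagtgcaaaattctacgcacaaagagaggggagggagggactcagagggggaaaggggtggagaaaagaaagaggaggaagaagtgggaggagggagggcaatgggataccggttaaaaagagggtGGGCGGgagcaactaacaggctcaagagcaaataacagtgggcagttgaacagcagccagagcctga

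Sp1 boxes were present in 5 of the 6 windows (Des, Dsp, Gja5, Jup and Vcl) and in 35.7% of all 32851 promoters of this length. The Gja1 window had none. It held instead a GATA match at position -135 from the start, a motif found in 11.2% of promoters, and an AP-1 match at position -19, found in 5.20%. The Vcl window held 4 Sp1 boxes, of which the first pair overlap by 1 base, a TEAD match (14.7% of promoters) and a CArG box at position -227 (1.63% of promoters). TATAAA, the E-box CACGTG, the motif AAGGTCA of estrogen-related receptors and the MEF2 core (TA, 4 of A or T, TA) were in none of the 6 windows, against 13.6%, 7.15%, 4.72% and 9.32% of all promoters. These matches describe the letters of the windows and not binding.

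**Figure D1:**
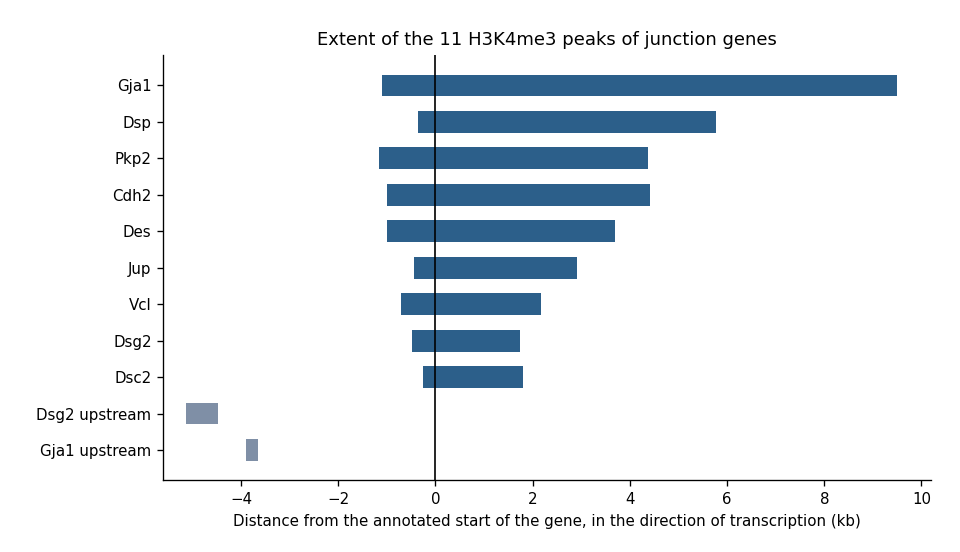
Extent of each of the 11 peaks in kilobases from the annotated start of its gene, with transcription running to the right and the start as a vertical line. The dark bars are the main peaks, all 9 of which cross the start and reach farther into the gene than before it, and the light bars are the separate upstream peaks of Dsg2 and Gja1.

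All 9 main peaks lay over the annotated start of their gene (GENCODE vM21 on GRCm38, the same coordinates as mm10), and each extended farther downstream than upstream. The Gja1 peak (ENSMUSG00000050953, chr10:56376228-56386827) was the longest at 10599 bases, wider than 99.7% of the 15039 tested peaks, and reached 9497 bases into the gene over exon 1 of 2. The peaks of Dsp (chr13:38150929-38157061), Pkp2 (chr16:16212165-16217686) and Cdh2 (chr18:16804822-16810238) measured 6132, 5521 and 5416 bases and each covered exon 1. The Dsp peak also overlapped the annotated gene Gm10129, so its signal cannot be assigned to Dsp alone. The Des peak (chr1:75359327-75364023, 4696 bases) covered exons 1 to 6 of 9, and was the only main peak to hold more than a first exon. Jup (chr11:100394829-100398189), Vcl (chr14:20928691-20931575), Dsg2 (chr18:20557595-20559823) and Dsc2 (chr18:20057745-20059811) had peaks of 3360, 2884, 2228 and 2066 bases, again over exon 1.

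Peaks above 2222 bases, the 75th percentile of tested peaks, were called broad, as the study grouped genes by breadth. Of the 10 tested junction gene peaks, 8 were broad, against 25% of all tested peaks by construction. Dsg2, at 2228 bases, stood just over the limit and Dsc2, at 2066, just under it, whereas the upstream peak of Dsg2 (652 bases) was narrow, under 1030 bases. The median width was 4028 bases against 1514 over all tested peaks, and the median level 288 normalized counts against 101.8. Per kilobase of peak the medians lay closer, at 68.6 and 60.5 normalized counts. Base composition at the summits differed among the genes. In the 1000 bases around the summit, Gja1 had a GC content of 46.3% and an observed over expected CpG ratio of 0.52, higher than 23.8% of tested peaks, while the other main peaks had GC contents from 58.5% for Pkp2 to 64.9% for Dsp and Des. The ratio was highest for Vcl, at 0.88, and the median over tested peaks was 0.70.

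The order of the main peaks was compared per kilobase, since longer peaks collect more reads. In CtrlCre libraries, Dsg2 (104 ± 3.92 normalized counts per kb, SD, n = 3), Vcl (101 ± 3.64) and Cdh2 (99.2 ± 5.04) came first, and the ranges of neighbours among them overlapped. Jup (80.4 ± 3.61) and Gja1 (79.8 ± 1.41) followed, and the ranges of Cdh2 and Jup did not overlap. Gja1 was in turn separated from Dsp (67.5 ± 4.44), below which Pkp2 (65.6 ± 3.82), Dsc2 (61.8 ± 2.79) and Des (54.4 ± 9.38) overlapped from neighbour to neighbour. Des was thus the lowest per kilobase in CtrlCre, and Gja1, the highest in total, ranked 5 of 9. In Cpt1bcKO libraries Vcl (102 ± 7.46) ranked 1, Dsg2 (87.7 ± 4.96) ranked 3, Des (66.2 ± 3.32) ranked 5 and Gja1 (65.9 ± 10.3) ranked 6. If the upstream peak of Dsg2 is pooled with its main peak, Dsg2 has 89.0 per kb in CtrlCre and ranks 3.

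Depth and purity of the libraries set the precision of these values. Counts in peaks ranged from 763133 (CtrlCre replicate 2) to 2766416 (Cpt1bcKO replicate 2), and at the median tested peak counting error alone was 15.2% of the value in CtrlCre replicate 2 and 8.06% to 10.5% in the others. The correlation of log2 values between libraries, across peaks, was 0.914 to 0.967. The Cpt1b peak had 428, 407 and 436 normalized counts in CtrlCre and 572, 689 and 568 in Cpt1bcKO libraries. It was higher in Cpt1bcKO, with a log2 difference of 0.52 (SE 0.10, limma adjusted p = 0.00357). This peak ends before the floxed exons and so says nothing of the deletion itself. All 8 CM markers had a peak, whereas 2 of 8 endothelial, 1 of 8 fibroblast, 3 of 6 mural, 1 of 8 leukocyte and 0 of 4 epicardial markers had one. The summed CM marker values were 7052 to 8322 in CtrlCre and 5697 to 7792 in Cpt1bcKO libraries. The mural sum was 121 to 177 in CtrlCre and 36 to 84 in Cpt1bcKO libraries, with Acta2, an actin of smooth muscle and immature CMs, at a log2 difference of -2.23 (SE 0.30, limma adjusted p = 7.36e-05). The endothelial sums were 56 to 112 and 58 to 83, the fibroblast sums 58 to 69 and 56 to 63, and the leukocyte sums 30 to 51 and 27 to 42. The 4 peaks on chromosome Y held 0 counts in the libraries numbered 1 and 2 of both genotypes, but 425 counts in CtrlCre replicate 3 and 448 in Cpt1bcKO replicate 3. The labels give no sex. Differences without both libraries numbered 3 are given beside the junction genes and the listed genes that passed the adjusted threshold, where they moved by over 1.5 times or lost a call. In bulk nuclei, a change in the share of nuclei that carry the mark and a change in the mark per nucleus cannot be told apart.

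H3K4me3 at the junction genes was compared between the genotypes to ask whether the deposition of the mark over genes of the cell border differs once CMs cannot import long-chain fatty acids into mitochondria. None of the 10 tested peaks passed an adjusted p under 0.05 in limma, against 2.93% of all tested peaks. At an unadjusted p under 0.05, the peaks of Gja1 and Dsg2 were lower and that of Des was higher in Cpt1bcKO CMs, 2 and 1 of 10 peaks, where 6.98% of all tested peaks were lower and 5.84% higher. Of broad peaks, the class of 8 of the 10, 11.4% were lower and 9.08% higher. The same 3 peaks were those whose CtrlCre and Cpt1bcKO values did not overlap, which held for 16.3% of all tested peaks and 21.6% of broad ones. In all, 8 differences lay below 0 and 2 above, with a median log2 difference of -0.098 against 0.0057 over all tested peaks and 0.0025 over broad ones. The median of the junction gene peaks was -0.064 without Cpt1bcKO replicate 3 and -0.037 without both libraries numbered 3.

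**Figure D2:**
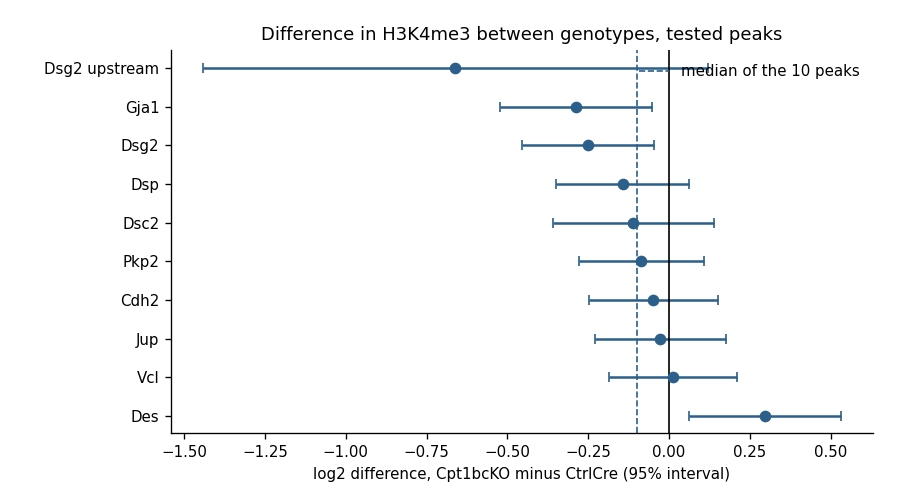
Log2 difference in H3K4me3, Cpt1bcKO minus CtrlCre, for the 10 tested junction gene peaks, with points for the limma estimate and bars for its 95% interval. Intervals of Gja1 and Dsg2 lie below 0, that of Des lies above 0, and the others span 0; none of the 10 passed an adjusted p under 0.05.

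Gja1, which encodes the connexin Cx43, had the highest level of the group, above 99.9% of tested peaks. Normalized counts were 863, 835 and 840 in CtrlCre replicates 1 to 3 and 720, 796 and 580 in Cpt1bcKO replicates 1 to 3. The CtrlCre values lay close together, all Cpt1bcKO values lay below them, and Cpt1bcKO replicate 3 was lowest by far. The mean was 846 ± 14.9 in CtrlCre and 699 ± 110 in Cpt1bcKO (SD, n = 3 each). This is a log2 difference of -0.29 (SE 0.11, 95% interval -0.52 to -0.05), or 0.819 of the control level (0.696 to 0.964). In limma the unadjusted p was 0.0189 and the adjusted p 0.247. Without Cpt1bcKO replicate 3 the difference shrank to -0.16 (limma unadjusted p = 0.12), and without both libraries numbered 3 it was -0.16 as well (limma unadjusted p = 0.12). Without CtrlCre replicate 1 the limma unadjusted p was 0.072. A further peak of Gja1 (chr10:56373440-56373680, 240 bases), which ended 3650 bases before the start, had 6, 7 and 9 normalized counts in CtrlCre and 10, 8 and 5 in Cpt1bcKO libraries. A floor of 3 counts equals 1.95 to 6.97 normalized counts depending on the library, so this peak was near the floor and was not tested.

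Gja5, which encodes the connexin Cx40, had no named peak in either genotype. The start shared by 2 of its 3 annotated transcripts (chromosome 3, position 97032416) lay 39217 bases from the nearest peak of the data set. That peak (chr3:97071633-97072267) has no gene name, lies within the annotated span of Gja5 and had 15, 16 and 20 normalized counts in CtrlCre and 10, 6 and 11 in Cpt1bcKO libraries. Its values did not overlap between the genotypes, with a log2 difference of -0.88 (SE 0.45, limma adjusted p = 0.424). A smaller unnamed peak, over exon 4 of the remaining transcript (chr3:97076441-97076675), had 4, 5 and 10 in CtrlCre and 12, 11 and 9 in Cpt1bcKO libraries. With a mean of 8.5 normalized counts it was near the floor and was not tested. The start of the remaining transcript lies in a peak that carries the name of Gpr89. Gja5 was therefore set apart from Gja1 by the absence of a called peak at its main start in these ventricular nuclei.

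**Figure D3:**
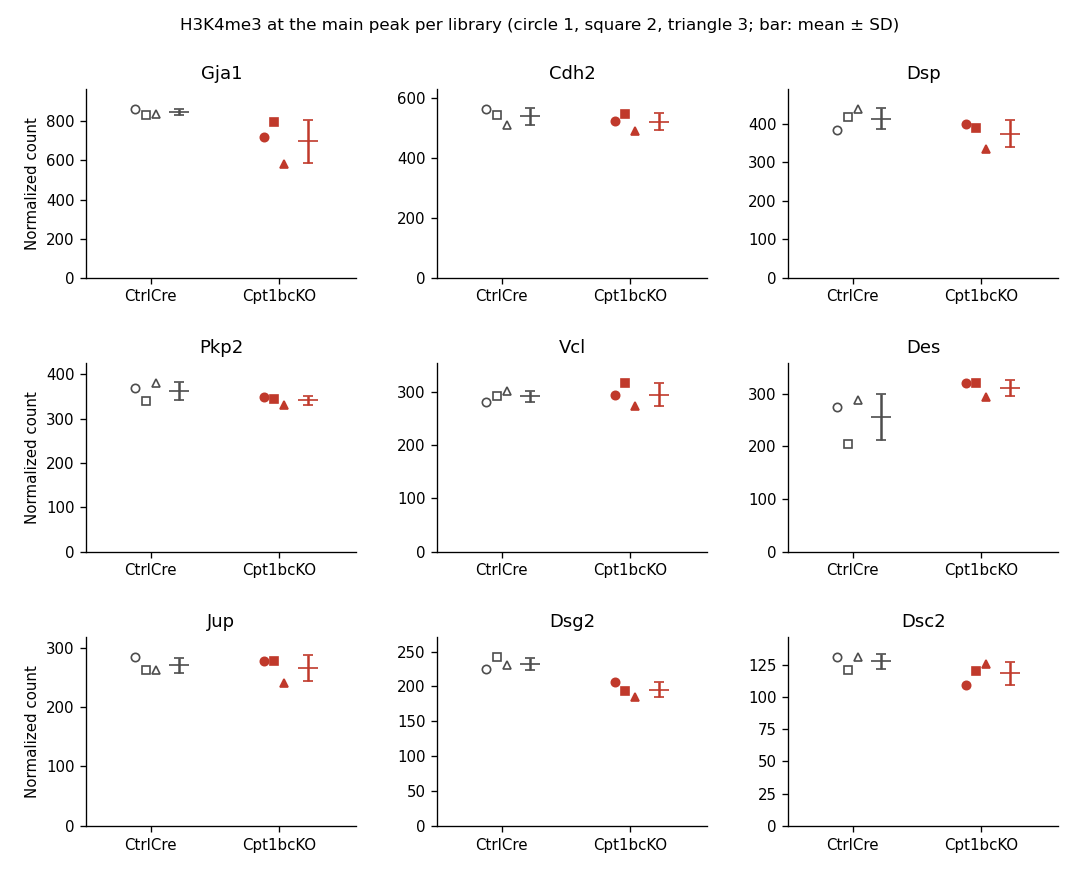
Normalized counts per library at the main peak of the 9 genes with a peak, ordered by mean level, with open CtrlCre and filled Cpt1bcKO symbols and shapes for replicates 1 to 3. Horizontal marks with bars give the mean ± SD (n = 3), and every axis starts at 0. The genotypes are separate at Gja1, Dsg2 and Des and overlap at the other 6 genes.

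Of the desmosomal cadherins, Dsg2 was lower in every Cpt1bcKO library than in any CtrlCre library, and Dsc2 was not. Separation of this kind, in either direction, held for 21.6% of broad tested peaks. The 95% intervals of the Dsg2 and Dsc2 differences, given below, overlapped. Whether these differences were unequal was not tested. Dsg2 had 225, 242 and 230 normalized counts in CtrlCre and 207, 194 and 185 in Cpt1bcKO libraries, with no overlap. The means were 232 ± 8.74 and 195 ± 11.1 (SD, n = 3 each). The log2 difference was -0.25 (SE 0.099, 95% interval -0.45 to -0.046), or 0.841 of the control level (0.730 to 0.969), with an unadjusted p of 0.0187 and an adjusted p of 0.245 in limma. It was -0.21 without Cpt1bcKO replicate 3 (limma unadjusted p = 0.068) and -0.22 without both libraries numbered 3 (limma unadjusted p = 0.088). Dsc2, the lowest main peak, had 131, 121 and 131 in CtrlCre and 109, 120 and 126 in Cpt1bcKO libraries. These ranges overlap, and the log2 difference was -0.11 (SE 0.12, 95% interval -0.36 to 0.14, limma adjusted p = 0.791), which was -0.053 without Cpt1bcKO replicate 1.

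A second, narrow peak of Dsg2 (chr18:20552944-20553596) ended 4478 bases before the start. It had 23, 33 and 16 normalized counts in CtrlCre and 17, 14 and 12 in Cpt1bcKO libraries, which overlap because CtrlCre replicate 3 (16) lay below Cpt1bcKO replicate 1 (17). The log2 difference of -0.66 was imprecise (SE 0.38, 95% interval -1.44 to 0.12, limma adjusted p = 0.492) and was -0.41 without CtrlCre replicate 2. It was -0.91 without CtrlCre replicate 3 (limma unadjusted p = 0.037) and -0.80 without both libraries numbered 3 (limma unadjusted p = 0.064). To see whether both Dsg2 peaks moved in step, the log2 ratio of the upstream to the main peak was taken in each library. It was -3.24, -2.84 and -3.76 in CtrlCre and -3.53, -3.70 and -3.84 in Cpt1bcKO libraries. The ranges overlap, and the difference of -0.41 gave p = 0.3 in an exact two-sided permutation test, whose smallest possible p is 0.1. The difference of the ratio was -0.19 without CtrlCre replicate 2 and -0.65 without CtrlCre replicate 3.

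At the genes of the desmosomal plaque the values of the genotypes overlapped. Dsp, which ties the plaque to intermediate filaments, had 385, 418 and 439 normalized counts in CtrlCre and 400, 390 and 336 in Cpt1bcKO libraries. Cpt1bcKO replicate 3 alone lay below the CtrlCre values, and the log2 difference of -0.14 (SE 0.10, 95% interval -0.35 to 0.06, limma adjusted p = 0.610) was -0.066 without it and -0.022 without both libraries numbered 3. Pkp2, an armadillo protein of the plaque, had 368, 339 and 380 in CtrlCre and 348, 345 and 330 in Cpt1bcKO libraries, a log2 difference of -0.086 (SE 0.093, 95% interval -0.28 to 0.11). That of Pkp2 was -0.133 without CtrlCre replicate 2, -0.051 without CtrlCre replicate 3 and -0.028 without both libraries numbered 3. Jup, which sits in desmosomes and in adherens junctions, had 284, 263 and 263 in CtrlCre and 278, 278 and 240 in Cpt1bcKO libraries. Its log2 difference was -0.027 (SE 0.098, 95% interval -0.23 to 0.18) and changed sign without CtrlCre replicate 1 (0.0093), without Cpt1bcKO replicate 3 (0.043) and without both libraries numbered 3 (0.025). The adjusted p was 0.788 for Pkp2 and 0.959 for Jup in limma.

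At the fascia adherens, Cdh2, the classical cadherin of the disc, had 562, 542 and 508 normalized counts in CtrlCre and 523, 546 and 490 in Cpt1bcKO libraries. The ranges overlap widely, with a log2 difference of -0.048 (SE 0.096, 95% interval -0.25 to 0.15, limma adjusted p = 0.903). Leaving out 1 library at a time gave -0.088 (without CtrlCre replicate 3) to -0.0067 (without Cpt1bcKO replicate 3). Vcl, which links cadherin and integrin complexes to actin, had 281, 291 and 302 in CtrlCre and 294, 316 and 273 in Cpt1bcKO libraries. Its log2 difference was 0.013 (SE 0.096, 95% interval -0.19 to 0.21, limma adjusted p = 0.980). It was -0.040 without Cpt1bcKO replicate 2, 0.066 without Cpt1bcKO replicate 3 and 0.092 without both libraries numbered 3. An unnamed peak in an intron of Cdh2 (chr18:16712998-16715582), 42929 bases from the nearest start, had 24, 21 and 80 in CtrlCre and 32, 18 and 37 in Cpt1bcKO libraries, and CtrlCre replicate 3 was far above the others. An unnamed peak 5625 bases before the start of Dsp (chr13:38145139-38145669) had 22, 35 and 38 in CtrlCre and 32, 21 and 23 in Cpt1bcKO libraries. The log2 differences of both were -0.30, with limma adjusted p of 0.831 at Cdh2 and 0.774 at Dsp.

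Des, which encodes the intermediate filament protein that connects discs, Z-discs and nuclei, was the single junction gene with higher values in every Cpt1bcKO library. It had 274, 205 and 287 normalized counts in CtrlCre and 320, 320 and 293 in Cpt1bcKO libraries. The genotypes are separated by 6 counts, and CtrlCre replicate 2, the library with the fewest counts, was lowest. The means were 255 ± 44.1 and 311 ± 15.6 (SD, n = 3 each). The log2 difference was 0.30 (SE 0.11, 95% interval 0.06 to 0.53), or 1.23 times the control level (1.04 to 1.45), with an unadjusted p of 0.0152 and an adjusted p of 0.220 in limma. Without CtrlCre replicate 2 it was 0.15 (limma unadjusted p = 0.159), without Cpt1bcKO replicate 1 it was 0.28 (limma unadjusted p = 0.056), and without both libraries numbered 3 it was 0.43 (limma unadjusted p = 0.0069, adjusted p = 0.196).

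**Figure D4:**
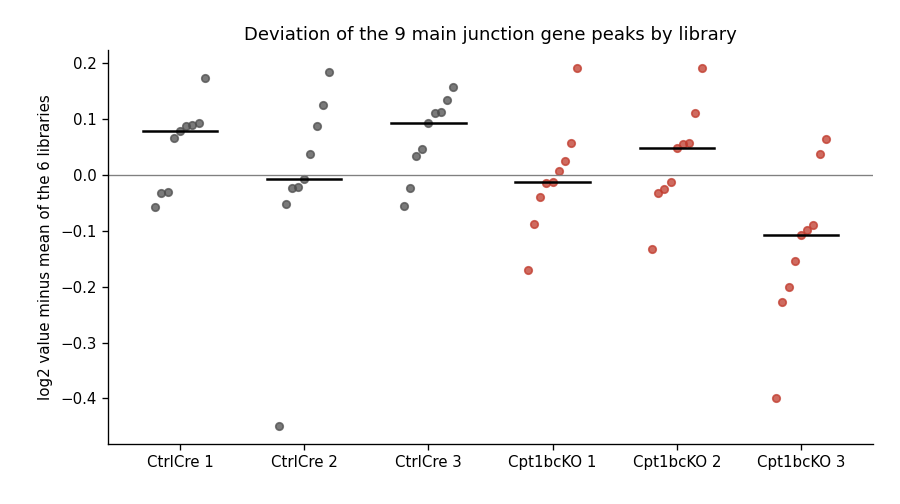
Deviation of the log2 value of each of the 9 main peaks from its mean over the 6 libraries, by library, with 1 point per gene and a black line at the median. Cpt1bcKO replicate 3 has the lowest median (-0.11), and the lowest points are Des in CtrlCre replicate 2 and Gja1 in Cpt1bcKO replicate 3.

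The junction genes also varied between the libraries of a genotype. Cpt1bcKO replicate 3 had the lowest value of the 6 libraries at 7 of the 9 main peaks, whereas it was lowest at 16.8% of all tested and 20.5% of broad peaks. The exceptions were Des, lowest in CtrlCre replicate 2, and Dsc2, lowest in Cpt1bcKO replicate 1. The normalized counts of the 9 main peaks summed to 3373, 3256 and 3380 in CtrlCre and to 3199, 3305 and 2853 in Cpt1bcKO libraries, so that Cpt1bcKO replicate 2 lay above CtrlCre replicate 2. The median deviation of the 9 peaks from their own means was -0.11 on the log2 scale in Cpt1bcKO replicate 3, against -0.015 for broad peaks in that library. What sets this library apart was not tested.

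Further genes of the same structures were taken from 4 lists with 90 genes in all, of which 75 had a tested peak and 15, among them Tln1, Tln2, Pkp1, Cryab and Sgcd, had none, and each gene was represented by its peak with the highest mean. Over the main peaks of all 11067 named genes, 1.26% were lower and 0.967% were higher at an adjusted p under 0.05, and 5.29% were lower and 6.03% higher at an unadjusted p under 0.05, with a median log2 difference of 0.020. Of 15 genes of the desmosome and cadherin list, 0 passed, with 10 differences below and 5 above 0 and a median of -0.13. At an unadjusted p under 0.05, 2 were lower and 1 was higher. Ctnna1, the α-catenin that links cadherins to actin, had 443, 381 and 371 normalized counts in CtrlCre and 324, 345 and 319 in Cpt1bcKO libraries (log2 difference -0.27, limma adjusted p = 0.183), with no overlap. Ctnnb1, its partner β-catenin, had 107, 86 and 116 in CtrlCre and 124, 138 and 133 in Cpt1bcKO libraries (log2 difference 0.36, limma adjusted p = 0.195). The values of these partners thus differed in opposite directions, neither past the adjusted threshold. Cdh13 (-0.24) and Nectin2 (0.20) were next in each direction, with limma adjusted p of 0.328 and 0.536.

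Among 19 genes of vinculin and integrin adhesion, 1 fell and 0 rose, with 8 differences below and 11 above 0 and a median of 0.061. At an unadjusted p under 0.05, 3 were lower and 5 higher. Pdlim7, a scaffold of actin filaments, had a log2 difference below 0 (-0.49, limma adjusted p = 0.0554), and Lims2 (0.54, 0.195) and Tns1 (0.48, 0.256), both adhesion proteins, lay above 0. None of these 3 passed, and without both libraries numbered 3 the list held 0 calls.

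Among 18 genes of gap junctions and channel scaffolds, 1 fell and 0 rose, with 13 differences below and 5 above 0 and a median of -0.062. At an unadjusted p under 0.05, 4 were lower and 0 higher. The gene that fell was Gjc1, which encodes Cx45, a connexin of the embryonic heart and the conduction system. It had 146, 139 and 139 normalized counts in CtrlCre and 99, 97 and 104 in Cpt1bcKO libraries (log2 difference -0.50, SE 0.12, limma adjusted p = 0.0210), and the call held in 9 of 15 alternatives. It was lost when CtrlCre replicate 1 (limma adjusted p = 0.113), CtrlCre replicate 3 (0.0577), any Cpt1bcKO replicate (0.0783, 0.0831 and 0.0533 for replicates 1 to 3) or both libraries numbered 3 (0.132) were left out. In these fits the log2 difference stayed between -0.54 and -0.47. Fgf13, a modulator of sodium channels, had a log2 difference of -0.42 (limma adjusted p = 0.0647), and Ank3 (0.27, 0.446) lay on the other side of 0.

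**Figure D5:**
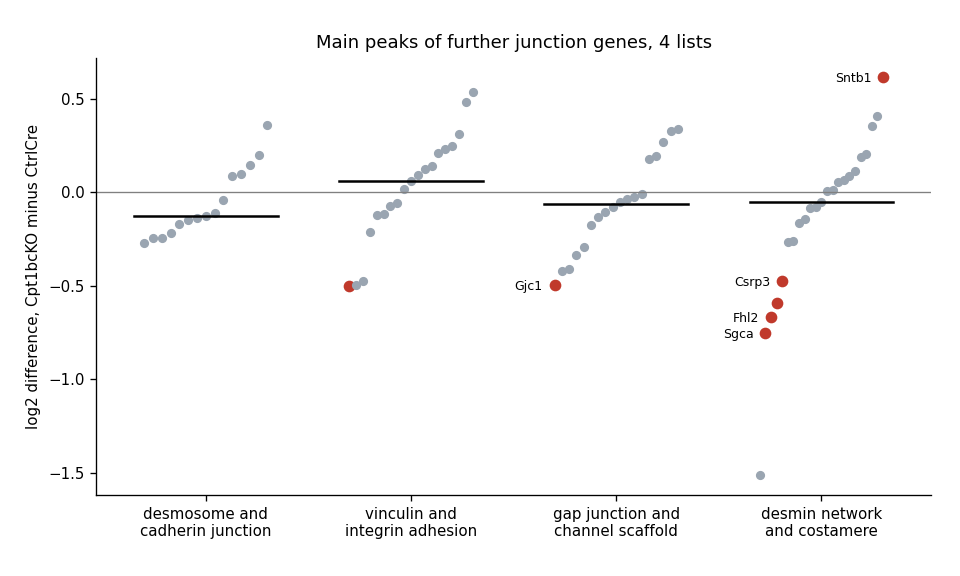
Log2 difference in H3K4me3, Cpt1bcKO minus CtrlCre, at the main peak of 75 further genes in 4 lists, with 1 point per gene, a black line at each list's median and red points for an adjusted p under 0.05 in limma, with the genes described in the text named. Of the 7 red points, 6 are lower in Cpt1bcKO, 4 of them in the desmin and costamere list, whose lowest point is the weakly marked Krt8.

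Around the desmin network and the costamere, the rib-like anchor of the sarcomere at the cell membrane, 4 of 23 genes fell and 1 rose, with 12 differences below and 11 above 0 and a median of -0.051. Of these 23 genes, 13 had a broad main peak. Among the 3145 broad main peaks of all genes, 96 were lower and 67 higher at an adjusted p under 0.05. At an unadjusted p under 0.05, 5 were lower and 4 higher. Among those that fell were Sgca, which encodes a sarcoglycan of the dystrophin complex, Fhl2, a LIM protein of the Z-disc, and Csrp3, the muscle LIM protein. Fhl2 had 1054, 990 and 1079 normalized counts in CtrlCre and 719, 720 and 541 in Cpt1bcKO libraries (log2 difference -0.67, SE 0.12, limma adjusted p = 0.00131). Sgca had 116, 109 and 114 in CtrlCre and 77, 64 and 60 in Cpt1bcKO libraries (-0.75, SE 0.15, limma adjusted p = 0.00416). In both genes all Cpt1bcKO values lay well below the CtrlCre values. Csrp3 had 417, 386 and 468 against 289, 385 and 251 (-0.48, SE 0.12, limma adjusted p = 0.0347), with Cpt1bcKO replicate 2 within 1 count of the lowest control. Sntb1, which encodes a syntrophin of the same dystrophin complex, rose from 187, 156 and 177 to 271, 266 and 259 (0.62, SE 0.10, limma adjusted p = 0.000728). Without both libraries numbered 3, Sntb1 and Fhl2 kept the call, with limma adjusted p of 0.0288 and 0.0240, and Sgca (0.112) and Csrp3 (0.474) did not. The call of Csrp3 was also lost without CtrlCre replicate 1 (0.122) or 3 (0.147) and without Cpt1bcKO replicate 1 (0.193) or 3 (0.236), and its log2 difference was -0.27 without both libraries numbered 3. Krt8, a keratin chosen for mention after its value was seen, had a log2 difference of -1.51 (limma adjusted p = 0.282) at a mean of 11 normalized counts.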

How the data were processed

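H3K4me3 ChIP–seq of sorted adult CM nuclei was analysed in 3 CtrlCre and 3 Cpt1bcKO libraries. The 6 input libraries have no column in the table and were not used here. Per the submitters' processing notes and the study's methods, the authors trimmed reads with Trimmomatic 0.39, aligned them to mm10 with STAR 2.6.1d, removed duplicates with Picard 2.21.7, called peaks with MUSIC (false discovery rate 0.2), merged them into union peaks and divided reads in peaks by DESeq2 (1.26.0) size factors. A peak carries the gene whose promoter lies within 5000 bases. What was deposited for each library is this normalized count, rounded to a whole number and treated as a score, and the deposited genotype means are an unrounded mean signal. The deposited fraction of each peak in the gene body was not tested. Fold changes and p-values of the authors' own comparison are in the table and were not used. Size factors hide a change shared by all peaks, and union peaks have 1 width for both genotypes.

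Whole counts were recovered by a search for integers that match the rounded value of each library and the mean of each genotype (a single solution for 15848 of 15848 peaks). Peaks reaching a mean of 10 (15039) were tested with limma 3.58.1 (R 4.3.3) on log2(value + 1), with eBayes and a trend, genotype alone, two-sided, with Benjamini–Hochberg adjustment over all of them. The design named edgeR for raw counts only, and the values are not raw counts. Log2 differences on this scale understate changes of low peaks. Intervals are 95% intervals of the limma estimate. The fit was also run on simulated counts with known changes, and the outcome is not reported here. Counting errors and floors cover counting error only. Alternatives were another pseudocount (5), no minimum or a minimum of 50, quantile and TMM scaling, voom on recovered counts, a replicate block and leaving out each library, and, added after seeing the data, leaving out both libraries numbered 3 or fitting them as a batch. Same-numbered libraries deviated with correlations of 0.076, -0.081 and 0.11 across peaks, so the numbers were not taken as pairs. The genes, the lists and the rule for naming genes (every peak of the 10 genes, and of each list the genes with an adjusted p under 0.05 and the 2 smallest p in each direction) were chosen with earlier results of these data known. Some listed genes that met the naming rule are not reported here, but remain in the counts.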

Additional observations from a re-analysis of the deposited data

How the results depend on the processing

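No alternative gave any junction gene peak an adjusted p under 0.05 in limma. The differences of Gja1, Dsg2, Des, Dsp, Pkp2, Cdh2 and Dsc2 kept their direction in all 15 alternatives, and an unadjusted p under 0.05 was reached in 12 of them for Gja1 and in 13 for Dsg2 and Des. Jup changed sign to 0.0093 without CtrlCre replicate 1, 0.043 without Cpt1bcKO replicate 3 and 0.025 without both libraries numbered 3, and Vcl to -0.013 without CtrlCre replicate 1 and -0.040 without Cpt1bcKO replicate 2. Leaving out 1 library at a time gave log2 differences of -0.063 to 0.043 for Jup and -0.040 to 0.066 for Vcl, 1 (without Cpt1bcKO replicate 3) to 4 (without CtrlCre replicate 3) junction gene peaks with an unadjusted p under 0.05 in place of 3, and 233 to 428 of all tested peaks with an adjusted p under 0.05 in place of 441. The lowest of these were 233 without CtrlCre replicate 1, 247 without Cpt1bcKO replicate 3 and 290 without Cpt1bcKO replicate 2. The same runs gave 1 to 2 called genes for vinculin and integrin adhesion, 0 to 2 for gap junctions and scaffolds, and 3 to 5 for the desmin network. Without both libraries numbered 3, 131 of all tested peaks were called, 1 junction gene peak had an unadjusted p under 0.05, and 0, 0 and 2 genes of these 3 lists were called. Gap junction genes numbered 2 under quantile scaling and under voom, and vinculin genes 2 with the libraries numbered 3 as a batch. The level of Dsg2 with both peaks pooled was 89.0 per kb. The cause of these shifts was not tested. With a minimum mean of 50 the Dsg2 upstream peak had no test.

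With the replicate number as a block, 370 of all tested peaks had an adjusted p under 0.05, and 4 desmin network genes in place of 5, the one lost being Csrp3 (limma adjusted p = 0.0627). The block left 3 junction gene peaks with an unadjusted p under 0.05 (Gja1 0.045, Dsg2 0.031 and Des 0.020 in limma). The Dsg2 ratio gave p = 0.25 in an exact sign-flip test over the same-numbered pairs. The ratio was lower in Cpt1bcKO in every pair, and 0.25 is the smallest p this test can give. The test could therefore not reach 0.05, and no conclusion is drawn from it. The block changed no call of a junction gene peak. The SE was 0.38 at the Dsg2 upstream peak, the tested junction gene peak with the fewest reads, against a median of 0.099 over the 10 peaks.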
